A study of Mus musculus with 34 samples.

Results

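The values below are those of 10 genes for TCF/LEF transcription factors and the cofactors they bind, out of 21938 protein-coding genes of the mouse genome with a promoter in the annotation used. The members were chosen by name and role: the factors Tcf7, Tcf7l1, Tcf7l2 and Lef1, the coactivators Bcl9, Bcl9l and Pygo2, and the corepressors Tle1, Tle3 and Tle4. Trimethylation of histone H3 at lysine 4 (H3K4me3), a mark of the starts of active genes, was read at each gene's promoter, defined as the 1000 bp on each side of the outermost annotated 5′ end (GENCODE M21, mm10). The mice compared, with 2 libraries a group, were C57BL/6J wild-type mice and Apc Min/+ mice, which carry 1 truncated copy of the tumour suppressor Apc in every cell and develop intestinal adenomas. Both groups were 5 weeks old by the labels, whereas the methods of the study give 6 weeks. The cells were scraped from the villi of small intestine that looked normal, so no adenoma was sampled. In CUT&RUN, the assay used, an antibody brings a nuclease to the marked nucleosomes of unfixed nuclei, and the fragments that are cut loose are sequenced.

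As background, TCF/LEF proteins are the DNA-binding end of the canonical Wnt pathway. Without a Wnt signal, the APC protein and its partners cause β-catenin to be degraded, and TCF/LEF proteins hold Groucho/TLE corepressors at their target genes. With the signal, or when APC is lost, β-catenin enters the nucleus and binds the TCF/LEF proteins, and BCL9 or BCL9L links it to PYGO2, which reads methylated H3K4. In the intestine this pathway maintains the stem cells of the crypts, and TCF7L2 is required for the stem cell compartment to persist.

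The signal is coverage that the authors scaled to 10000000 tags in each library, and it is given per base, so levels can be compared between genes over windows of equal length. The libraries held 1430000 and 4790000 tags in wild-type mice, and 3700000 and 5470000 tags in Apc Min/+ mice, in the order of replicates 1 and 2. Of the signal of each library, 22.6% and 11.9% lay in enriched regions in wild-type mice and 43.3% and 16.4% in Apc Min/+ mice. These regions were called on the mean of the same 4 libraries, so each share depends in part on the library's own peaks. Apc Min/+ replicate 1 thus stood apart from the other libraries: the median of the promoters whose mean signal reached 2 was 13.2 there, against 4.53 and 3.06 in the wild-type libraries and 4.18 in Apc Min/+ replicate 2. The background signal, taken outside enriched regions and over 5000 bp from any start, was 0.268, 0.314, 0.189 and 0.285 in the order of wild-type and Apc Min/+ replicates 1 and 2. Of 16 enterocyte markers 14 had a mean signal of at least 2, whereas 0 of 16 T and B cell markers, 0 of 10 mesenchyme markers and 0 of 14 genes silent in intestine did. Summed over the T and B cell markers, which matter here because Tcf7 and Lef1 are also T cell genes, the signal was 12.9 and 10.0 in wild-type mice and 23.3 and 14.4 in Apc Min/+ mice. Their defining genes Ptprc, Cd3e and Cd3d all had a mean signal under 2. None of the 16 was at 0 in every library. The part of these cells in the values of Tcf7 and Lef1 was not tested.

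Promoters rich in CpG dinucleotides are known to carry H3K4me3 more often than others, and the members differed in this respect. The 200 bases before a start are shown for 4 members, 5′ to 3′ on the gene's own strand, counted from the outer of the GENCODE and RefSeq starts and read from the RefSeq assembly GRCm38.p6, which has the coordinates of mm10. Capitals mark each CpG. Tcf7l2 and Tle1 are shown as promoters that were marked, Tcf7l1 as one with many CpG and little signal, and Bcl9 at 2 starts that were both marked although only the inner one is rich in CpG.
Tcf7l2, chr19:55741610-55741809, plus strand: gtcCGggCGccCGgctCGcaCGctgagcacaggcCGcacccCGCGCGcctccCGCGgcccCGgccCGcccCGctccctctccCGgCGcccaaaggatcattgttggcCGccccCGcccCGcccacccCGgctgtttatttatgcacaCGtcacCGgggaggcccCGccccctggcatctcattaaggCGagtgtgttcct
Tle1, chr4:72200920-72201119, minus strand: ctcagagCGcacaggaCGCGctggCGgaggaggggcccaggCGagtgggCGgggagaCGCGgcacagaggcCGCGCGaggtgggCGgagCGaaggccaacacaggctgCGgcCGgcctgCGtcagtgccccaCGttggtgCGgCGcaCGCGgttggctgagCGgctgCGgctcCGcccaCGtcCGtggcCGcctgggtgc
Tcf7l1, chr6:72789255-72789454, minus strand: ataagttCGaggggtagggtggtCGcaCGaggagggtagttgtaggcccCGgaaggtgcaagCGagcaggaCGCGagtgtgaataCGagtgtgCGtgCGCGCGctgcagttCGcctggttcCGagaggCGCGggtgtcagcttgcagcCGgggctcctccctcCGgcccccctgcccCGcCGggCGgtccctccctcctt
Bcl9 outermost 5′ end, chr3:97297918-97298117, minus strand: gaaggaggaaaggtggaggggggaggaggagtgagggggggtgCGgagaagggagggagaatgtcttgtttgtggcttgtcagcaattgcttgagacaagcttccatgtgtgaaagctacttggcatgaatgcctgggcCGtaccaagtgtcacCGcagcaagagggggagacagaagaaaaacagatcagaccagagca
Bcl9 coding start, chr3:97227536-97227735, minus strand: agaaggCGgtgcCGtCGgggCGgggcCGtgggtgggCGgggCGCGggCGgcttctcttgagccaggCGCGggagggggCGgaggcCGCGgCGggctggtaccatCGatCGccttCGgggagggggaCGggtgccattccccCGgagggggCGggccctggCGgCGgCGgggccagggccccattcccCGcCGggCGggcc
These stretches hold 24 CpG at Tcf7l2, 27 at Tle1, 21 at Tcf7l1, 3 at the outermost 5′ end of Bcl9 and 27 at its coding start. The median over all promoters was 7.

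Of the 4 factors, Tcf7l2 carried the most H3K4me3. At Tcf7l2 (ENSMUSG00000024985.19, chr19:55741820-55933654, plus strand), the main member of the family in the intestinal epithelium, the signal was 4.8 and 2.03 in wild-type mice and 9.22 and 3.32 in Apc Min/+ mice. The groups overlapped, since wild-type replicate 1 was above Apc Min/+ replicate 2. These values rest on 14, 19, 68 and 36 tags, and the exact Poisson 95% interval of the first is 7.65 to 23.5 tags. Such intervals cover counting error only. Tcf7l2 lay at the 79.1st, 64.1st, 68.0th and 68.8th percentile of all promoters of the same libraries, in the order of wild-type replicates 1 and 2 and Apc Min/+ replicates 1 and 2.

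The other 3 factors carried little of the mark. Tcf7 (ENSMUSG00000000782.15, chr11:52252371-52283014, minus strand), which encodes TCF1, had a signal of 1.58 and 0.940 in wild-type mice and 2.38 and 1.5 in Apc Min/+ mice. Tcf7l1 (ENSMUSG00000055799.13, chr6:72626378-72789254, minus strand), which encodes TCF3, mainly a repressor, had 2.09 and 0.674 in wild-type mice and 1.03 and 2.09 in Apc Min/+ mice. Lef1 (ENSMUSG00000027985.14, chr3:131110471-131224356, plus strand) had 1.63 and 0.626 in wild-type mice and 0.693 and 1.12 in Apc Min/+ mice. At all 3 the groups overlapped, and in every library each was below Tcf7l2.

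These 3 promoters held between 5 and 23 tags per library. They lay between the 37.1st and the 59.2nd percentile of all promoters, near the middle of a distribution in which 12007 of 21938 promoters had a mean signal under 2. Their signal was 2.14 to 12.5 times the background of the same library at Tcf7 and Tcf7l1, and 2.0 to 6.10 times at Lef1. That background was taken away from all starts, so it is not the level of a silent promoter. In wild-type replicate 2 the median of the 14 silent genes was 0.622, beside 0.626 at Lef1 and 0.674 at Tcf7l1. Set against the 14 genes silent in intestine, Tcf7 was above 12, 12, 14 and 14 of them in the 4 libraries in the order used so far, Tcf7l1 above 13, 9, 14 and 14, and Lef1 above 12, 7, 13 and 13. At the annotated start of each gene with the highest signal, the mean over the 4 libraries was also under 2 (1.60 at Tcf7, 1.47 at Tcf7l1 and 1.11 at Lef1).

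**Figure D1:**
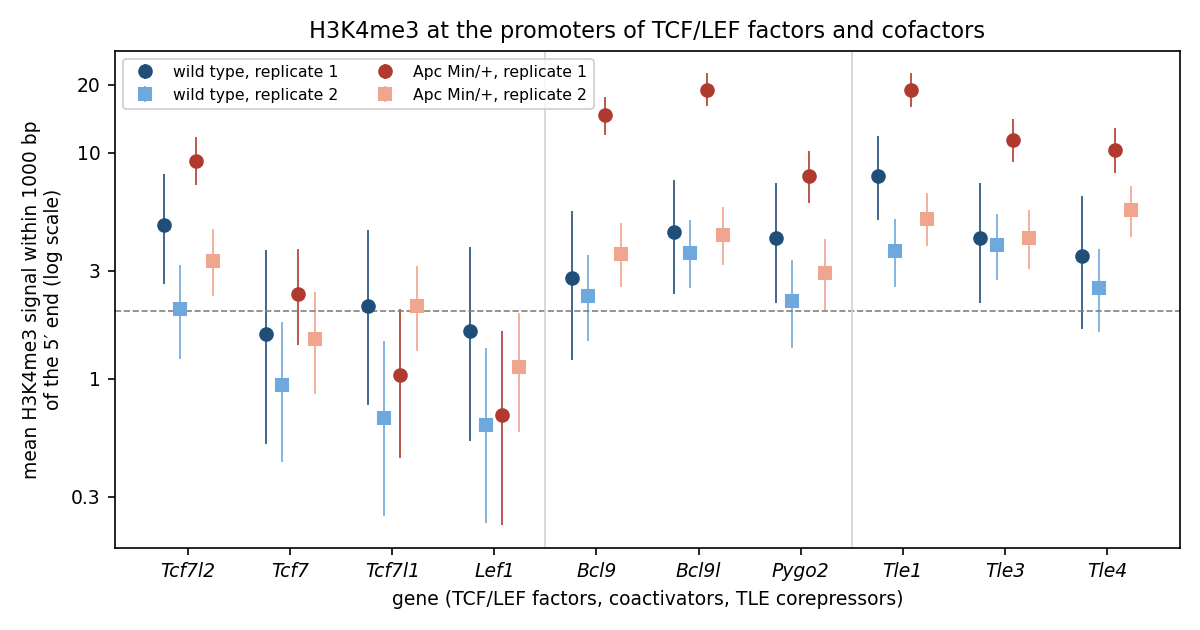
Mean H3K4me3 signal within 1000 bp of the 5′ end of each gene (log scale) in the 4 libraries, with exact Poisson 95% intervals of the tags as bars and the filter of 2 as a dashed line. Tcf7, Tcf7l1 and Lef1 lie around or under the filter, and Apc Min/+ replicate 1 is the highest library at the other 7 genes.

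The 3 coactivator genes were marked in every library. At Bcl9 (ENSMUSG00000038256.15, chr3:97203662-97297917, minus strand), whose protein joins β-catenin to PYGO2, the signal was 2.79 and 2.33 in wild-type mice and 14.6 and 3.57 in Apc Min/+ mice. The groups did not overlap. The tag numbers behind these values were 8, 22, 108 and 39. At its homologue Bcl9l (ENSMUSG00000063382.6, chr9:44482825-44511896, plus strand) the signal was 4.44 and 3.61 in wild-type mice and 19.0 and 4.34 in Apc Min/+ mice, and the groups overlapped. Pygo2 (ENSMUSG00000047824.13, chr3:89430214-89435128, plus strand), which encodes the PHD finger protein that binds methylated H3K4, had 4.19 and 2.20 in wild-type mice and 7.89 and 2.94 in Apc Min/+ mice, again with overlap. Bcl9 lay between the 66th and the 80.5th percentile of all promoters, Bcl9l between the 77.0th and the 88.4th, and Pygo2 between the 64.9th and the 76.1st.

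All 3 corepressor genes were marked as well, and Tle1 had the highest mean of the 10 members. At Tle1 (ENSMUSG00000008305.18, chr4:72117142-72200919, minus strand) the signal was 7.92 and 3.66 in wild-type mice and 19.0 and 5.09 in Apc Min/+ mice. Tle3 (ENSMUSG00000032280.16, chr9:61372366-61418497, plus strand) had 4.19 and 3.89 in wild-type mice and 11.4 and 4.17 in Apc Min/+ mice. In both genes the groups overlapped. At Tle4 (ENSMUSG00000024642.17, chr19:14448150-14598051, minus strand) the signal was 3.48 and 2.52 in wild-type mice and 10.3 and 5.56 in Apc Min/+ mice, again without overlap. In Apc Min/+ replicate 2, Tle4 was the highest of the members, at the 89.1st percentile, whereas in the other 3 libraries it lay between the 70.1st and the 70.6th. A noncoding RNA starts 429 bp from the 5′ end of Tle1 (C630043F03Rik), another starts 173 bp from that of Tle3 (Gm10655), and the unclassified transcript Gm47205 starts 978 bp from that of Bcl9l, in each case on the other strand, so the signal there cannot be given to 1 gene alone.

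By the mean over the 4 libraries the order was Tle1 (8.91), Bcl9l (7.85), Tle3 (5.91), Bcl9 (5.82), Tle4 (5.46), Tcf7l2 (4.84), Pygo2 (4.30), Tcf7 (1.60), Tcf7l1 (1.47) and Lef1 (1.02). Of the neighbours in this order, only Pygo2 and Tcf7, and Tcf7l1 and Lef1, differed in the same direction in 4 of 4 libraries. Every other pair of neighbours changed places in at least 1 library, so their order is not fixed by these data. The order of Tcf7l1 and Lef1 rests on few tags and is not fixed either. Tcf7l1 held 6, 6, 8 and 23 tags and Lef1 5, 6, 5 and 12, in the order of libraries used so far. The exact Poisson intervals of these 2 genes overlapped in every library. The gap between Pygo2 and Tcf7 parts 7 marked members from 3 with little signal. In each library the lowest of the 7 was above the highest of the 3, with 2.79 against 2.09 and 2.03 against 0.940 in wild-type mice, and 7.89 against 2.38 and 2.94 against 2.09 in Apc Min/+ mice.

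Around the 5′ end, the signal of most members was higher on the transcribed side, to different degrees. The 1000 bp downstream held more signal than the 1000 bp upstream in every library at Tcf7l2, Bcl9, Bcl9l, Pygo2, Tle1 and Tle3. At Pygo2 the downstream share was 87.9% and 75.3% in wild-type mice and 95.3% and 86.2% in Apc Min/+ mice. At Tcf7l2 it was nearer to even, with 57.5% and 51.2% in wild-type mice and 53.9% and 57.1% in Apc Min/+ mice. Tle4 was the exception among the marked members, since it had 4.24% and 29.4% downstream in wild-type mice and 38.0% and 22.4% in Apc Min/+ mice. At Tcf7 the highest 100 bp bin lay from -600 to -501 bp, upstream of the 5′ end, with 3.55 and 7.21 in wild-type mice and 13.5 and 4.14 in Apc Min/+ mice.

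The widths of the enriched regions also differed between the members, but did not separate the marked members from those with little signal. Bins of 100 bp whose mean signal over the 4 libraries was at least 5 times the genome mean were joined over gaps of up to 500 bp. At the 5′ end of Tcf7l2 such a region spanned 4900 bp (chr19:55740801-55745700), at Bcl9l 5900 bp (chr9:44482201-44488100), which also covers the start of Gm47205, at Tle1 4500 bp (chr4:72197801-72202300) and at Tle4 3600 bp (chr19:14595601-14599200). The region at Tle3 spanned 3200 bp (chr9:61372201-61375400) and had a mean signal of 10.7. Pygo2 had a narrow one of 1100 bp (chr3:89430101-89431200). At Tcf7l1 the region was wider than that, with 1700 bp (chr6:72788601-72790300), at a mean signal of 1.60. The region at the 5′ end of Lef1 was 300 bp wide (chr3:131110201-131110500) and held 1.84 and 3.94 tags in wild-type mice and 0.977 and 4.07 tags in Apc Min/+ mice. Tcf7 again differed, with a wide region of 4900 bp (chr11:52279601-52284500) at a low mean signal of 1.74. A second region of 2800 bp (chr9:44477601-44480400) lay upstream of Bcl9l, but it covers the start of another gene, C030014I23Rik.

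**Figure D2:**
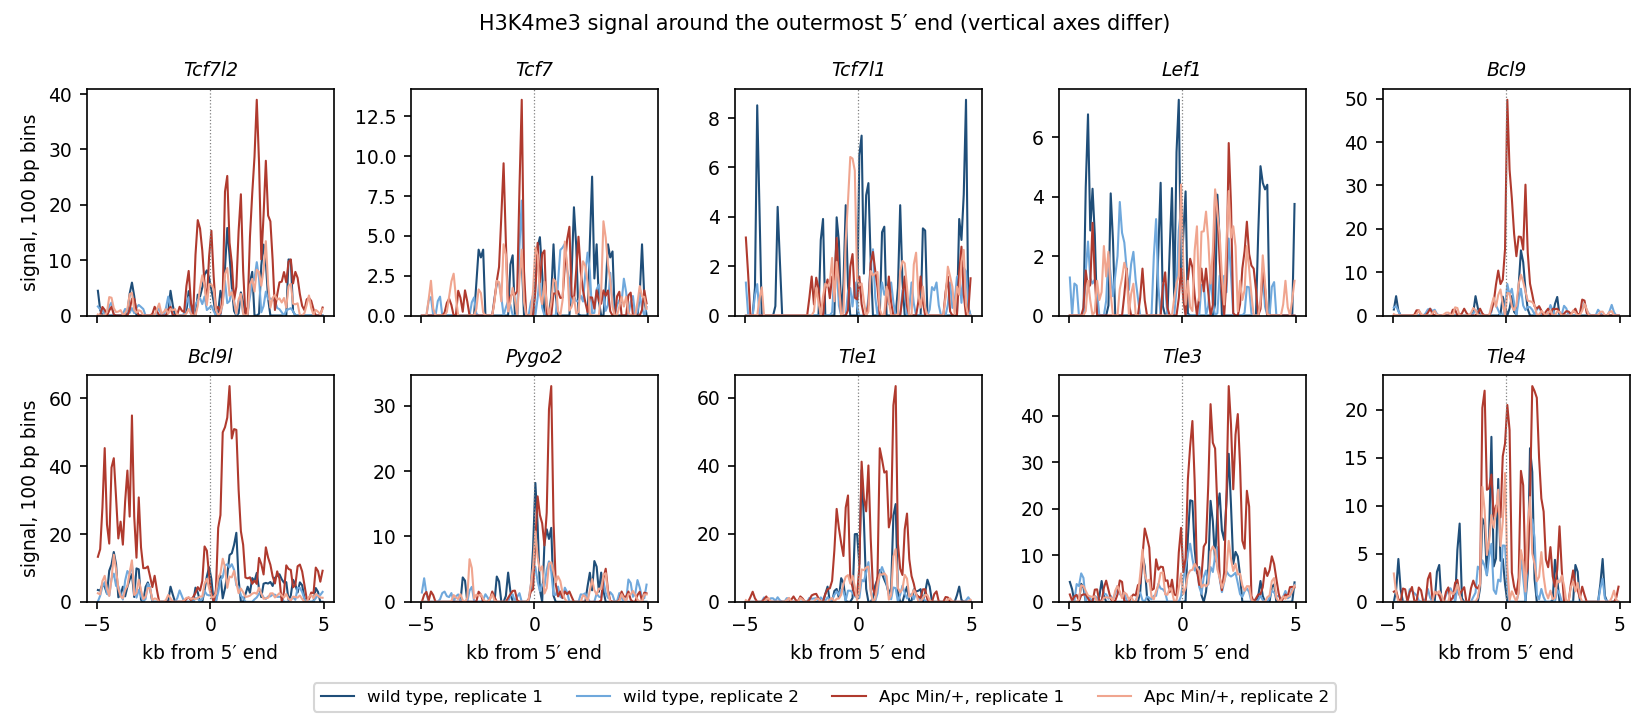
H3K4me3 signal in 100 bp bins against the distance from the outermost 5′ end (kb, in the direction of transcription) for the 10 members, with 1 line per library and a vertical axis of its own for each gene. Bcl9, Bcl9l, Pygo2 and Tle3 rise on the downstream side, and Lef1 and Tcf7l1 show single low peaks that differ between libraries.

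The low signal of 3 factors was measured in promoters rich in CpG. Within 1000 bp of the 5′ end, Tcf7 held 142 CpG, Tcf7l1 140 and Lef1 123, which put them at the 92.6th, 92.2nd and 87.0th percentile of all promoters (median 61). Of the promoters within 5 CpG of each of these, 74.6%, 75.9% and 71.6% had a mean signal of at least 2. Only 22.2%, 20.2% and 18.7% of them had a lower mean signal than Tcf7, Tcf7l1 and Lef1. Tcf7l2, with 112 CpG, was above 41.2% of the promoters like it, and Tle1 and Tle4, with 209 and 217 CpG, were at the 99.5th and 99.6th percentile of CpG content. Bcl9 was the other way round, with 49 CpG and a higher mean signal than 83.9% of the promoters like it, of which 42.3% reached 2. Over all promoters, the share with a mean signal of at least 2 was 3.44% with up to 24 CpG and 75.4% with 100 to 149 CpG. These are shares of promoters of the same 4 libraries and carry no test.

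**Figure D3:**
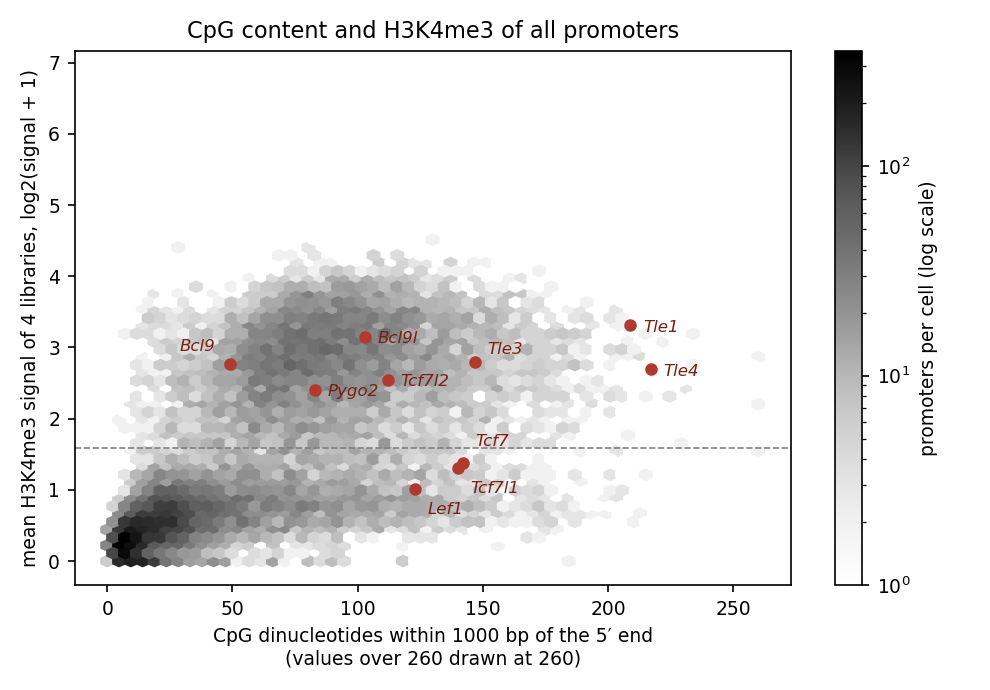
Mean H3K4me3 signal of the 4 libraries, as log2(signal + 1), against the number of CpG within 1000 bp of the 5′ end for all 21938 promoters (grey cells, log scale of number) and the 10 members (red). The dashed line is the filter of 2, under which Tcf7, Tcf7l1 and Lef1 lie although most promoters with as many CpG lie above it.

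The letters that TCF/LEF proteins prefer were searched as CTTTGAT and CTTTGAA on both strands within 1000 bp of each 5′ end. Of the members 7 of 10 held at least 1 match, against 48.8% of all promoters. Tle1 had 3 matches and Tcf7l2 had 2, while Lef1, Bcl9l and Tle3 had 0. None lay in the 200 base stretches shown above.

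The comparison of genotypes asked whether H3K4me3 at these genes differs in villus cells of Apc Min/+ mice before adenomas are sampled. It was made on log2(signal + 1) with limma over the 9931 promoters whose mean signal reached 2, and 7 members were among them. Tcf7, Tcf7l1 and Lef1 did not reach this filter. The wild-type mean of each of the 7 was above 2 too, from 2.56 ± 0.324 (SD, n = 2) at Bcl9 to 5.79 ± 3.01 at Tle1, so none passed through the Apc Min/+ libraries alone. No promoter was called at an adjusted p of 0.05 (0 of 9931, 0.0%), and 131 were under an unadjusted p of 0.05. An exact permutation test of 2 against 2 libraries cannot go below a p of 0.333, so no single value could pass. The methods of the study name 2 mice in each group but do not say that each library came from 1 mouse, so the p-values measure only the spread between these libraries, which may be technical.

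All 7 members tested were higher in Apc Min/+ mice, as were 99.2% of the promoters tested, so that the direction says nothing about the members. The difference on the log2 scale was 1.25 ± 0.93 (SE) at Bcl9, 1.12 ± 0.97 at Tle4, 1.05 ± 1.10 at Bcl9l, 0.78 ± 1.18 at Tle1, 0.67 ± 1.02 at Tle3, 0.66 ± 0.90 at Tcf7l2 and 0.54 ± 0.86 at Pygo2. By limma each had an adjusted p of 0.683. The median over the 7 was 0.78, beside 0.85 over all promoters tested. In 2 of 7, Bcl9 and Tle4, both Apc Min/+ values exceeded both wild-type values, a share to be read against the 38.5% of all promoters tested for which this held. Without the filter it held at 25.9% of all 21938 promoters and at none of the 3 low factors, whose differences were 0.38 ± 0.49 at Tcf7, 0.14 ± 0.55 at Tcf7l1 and -0.13 ± 0.42 at Lef1 (SE).

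The size of these differences rested on Apc Min/+ replicate 1. Without it, the difference was 0.72 at Tle4, 0.36 at Bcl9, 0.09 at Bcl9l, 0.04 at Tcf7l2, 0.04 at Tle3, -0.05 at Pygo2 and -0.08 at Tle1. Without Apc Min/+ replicate 2 instead, 6477 of 9931 promoters passed the threshold, and so did all members tested but Tle1 (1.63, adjusted p = 0.0546 by limma), with differences from 1.13 at Pygo2 to 2.13 at Bcl9. In that fit the only library left of the group is assumed to vary like the wild-type libraries.

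To remove the level that the promoters of a library share, each library was also centred on its median tested promoter. The differences then became 0.40 at Bcl9, 0.26 at Tle4, 0.19 at Bcl9l, -0.08 at Tle1, -0.18 at Tle3, -0.19 at Tcf7l2 and -0.31 at Pygo2. Relative to the other promoters, 3 members were higher and 4 were lower, and by limma none passed the threshold. At Bcl9 both Apc Min/+ values still exceeded both wild-type values, which was so for 13.1% of all promoters tested. At Pygo2 both were below, as at 14.3% of all promoters tested.

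**Figure D4:**
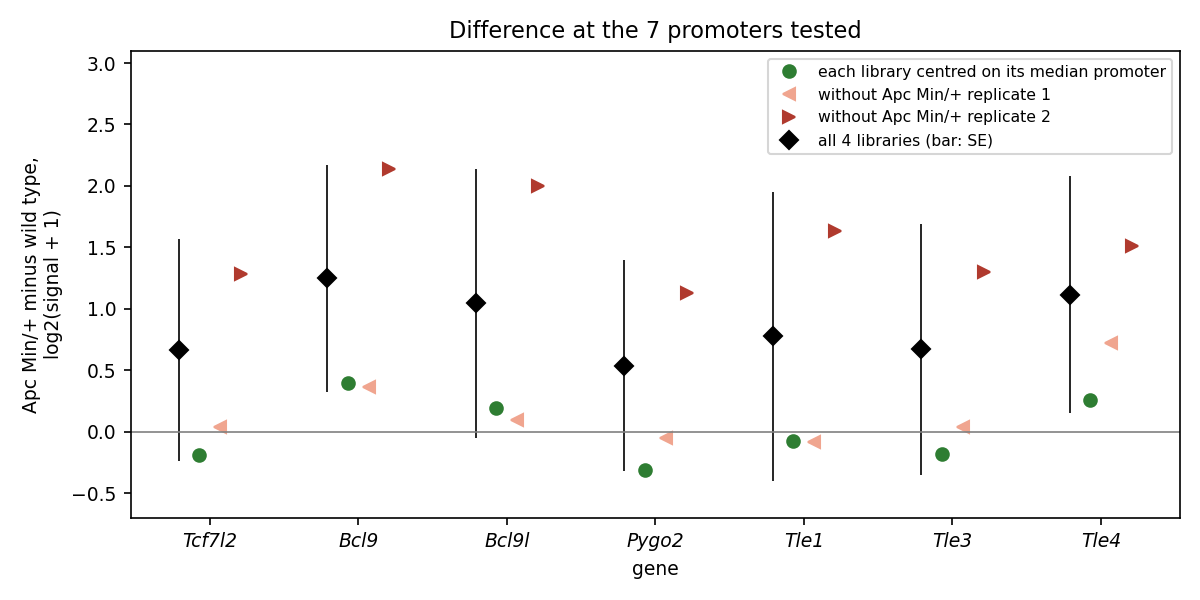
Difference in log2(signal + 1), Apc Min/+ minus wild type, at the 7 promoters tested, with all 4 libraries (diamonds, bars are the SE), after centring each library on its median promoter, and without either Apc Min/+ library. The differences without Apc Min/+ replicate 1 and those after centring lie between -0.31 and 0.72, and those without Apc Min/+ replicate 2 lie above 1.

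Shares within a family do not change when a library is multiplied by a constant. They can still change with the background and enrichment of a library, which differed here. Tcf7l2 held 47.5% and 47.6% of the summed promoter signal of the 4 factors in wild-type mice and 69.2% and 41.4% in Apc Min/+ mice (exact permutation p = 1.0, n = 2 in each group). Bcl9 held 38.6% and 39.2% of the sum of Bcl9 and Bcl9l in wild-type mice and 43.5% and 45.2% in Apc Min/+ mice. Its share was thus higher in both Apc Min/+ libraries, by 5.39 percentage points. The exact permutation p was 0.333, the smallest that n = 2 in each group allows. This share was read at the outermost 5′ ends, and that of Bcl9 belongs to a noncoding transcript. Of the summed signal of the 3 corepressors, Tle4 held 22.3% and 25.01% in wild-type mice and 25.3% and 37.5% in Apc Min/+ mice (exact permutation p = 0.333, n = 2). The difference between replicates of the Apc Min/+ group was larger there than that between wild-type replicate 2 and Apc Min/+ replicate 1.

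The outermost 5′ end is not the only start of these genes, and inner starts of TCF/LEF genes are known to give proteins without the part that binds β-catenin. Starts of 1 gene within 500 bp of each other were merged and placed at the outermost, and each was read over 500 bp on each side. In the limma fit over 13467 starts of all genes 0 were called at an adjusted p of 0.05 (0.0%), and 328 were under 0.05 before adjustment. At Tcf7l2 the outermost start (4.31 and 1.36 in wild-type mice, 7.17 and 3.72 in Apc Min/+ mice) and another 1025 bp downstream (4.96 and 2.71, then 12.7 and 3.56) held 36.4% and 52.5% of the summed start signal. The 4 starts 151532 to 156489 bp inside the gene each held under 10% of it. Tcf7l1 had 76.8% of its start signal at the outermost end and 14.7% at a start of 1 noncoding transcript 158984 bp inside, where the signal was 0 and 0.0958 in wild-type mice and 0.27 and 0.948 in Apc Min/+ mice. After merging, Tcf7 and Pygo2 have a single start, whereas RefSeq lists 2 promoters for Tcf7 and 3 for Pygo2.

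Lef1 had no start that reached a mean signal of 2. Its outermost start had 2.57 and 0.835 in wild-type mice and 0.743 and 1.11 in Apc Min/+ mice. The start 2326 bp downstream was at 0 in wild-type replicate 1, which allows up to 3 tags, and at 0.604 in wild-type replicate 2, beside 1.58 and 1.81 in Apc Min/+ mice. The innermost start, 3343 bp downstream, had 2.09 and 0.38 in wild-type mice and 1.07 and 0.728 in Apc Min/+ mice. The share of the start signal of Lef1 more than 2000 bp inside its 5′ end was 44.9% and 54.1% in wild-type mice and 78.1% and 69.6% in Apc Min/+ mice, so both Apc Min/+ libraries were higher (exact permutation p = 0.333, n = 2). These shares rest on 0 to 9.90 tags per start and library. The transcript Gm43352, on the other strand, starts 707 bp from the Lef1 start at 2326 bp. The enriched region there (chr3:131111901-131112600) covers the start of Gm43352 and ends 197 bp short of that of Lef1. The signal inside Lef1 therefore cannot be given to this gene alone.

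Bcl9 was marked at places 69587 bp apart. Its outermost start, which belongs to 1 noncoding transcript, had 1.42 and 2.66 in wild-type mice and 19.1 and 3.15 in Apc Min/+ mice. The start 69587 bp further in had 3.1 and 4.98 in wild-type mice and 18.5 and 3.85 in Apc Min/+ mice, and the coding start next to it, 70382 bp in, had 5.08 and 2.33 in wild-type mice and 8.62 and 1.36 in Apc Min/+ mice. The inner enriched region (chr3:97226501-97228600) and the outer one (chr3:97296701-97298500) were 2100 and 1800 bp wide. Of the start signal of Bcl9, 83.1% and 73.8% lay more than 2000 bp inside the 5′ end in wild-type mice and 53.6% and 67.7% in Apc Min/+ mice (exact permutation p = 0.333, n = 2). The difference at the outermost start, 1.62 ± 0.83 (SE, log2), and that at the coding start, 0.08 ± 0.79, had adjusted p of 0.748 and 0.934 by limma. The difference between the 2 starts was not tested itself.

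At Bcl9l the outermost start had 4.08 and 1.98 in wild-type mice and 10.2 and 3.98 in Apc Min/+ mice. A start 4422 bp inside had 1.77 and 1.24 in wild-type mice and 5.61 and 1.25 in Apc Min/+ mice. The start 15482 bp inside the gene had 3.47 and 1.30 in wild-type mice and 2.20 and 2.01 in Apc Min/+ mice, with groups that overlapped. The start 16311 bp inside had 2.90 and 0.615 in wild-type mice and 1.06 and 0.603 in Apc Min/+ mice. The share over 2000 bp inside the 5′ end was 64.6% and 61.4% in wild-type mice and 45.2% and 47.7% in Apc Min/+ mice (exact permutation p = 0.333, n = 2). With windows of 250 bp in place of 500 bp, the difference in this share was -7.98 percentage points in place of -16.6. At Tle1 the start 767 bp inside had 4.67 and 5.98 in wild-type mice and 25.8 and 6.25 in Apc Min/+ mice, and by its mean the start 1427 bp inside was the highest (8.95 and 4.52 in wild-type mice, 35.1 and 6.94 in Apc Min/+ mice). At Tle3 the start 1963 bp inside, with 17.4 and 6.04 in wild-type mice and 24.1 and 7.07 in Apc Min/+ mice, was above the outermost one in every library. Tle4 had 81.7% of its start signal at the outermost end, and its start 2512 bp inside had 0.724 and 0.209 in wild-type mice and 2.36 and 1.3 in Apc Min/+ mice.

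**Figure D5:**
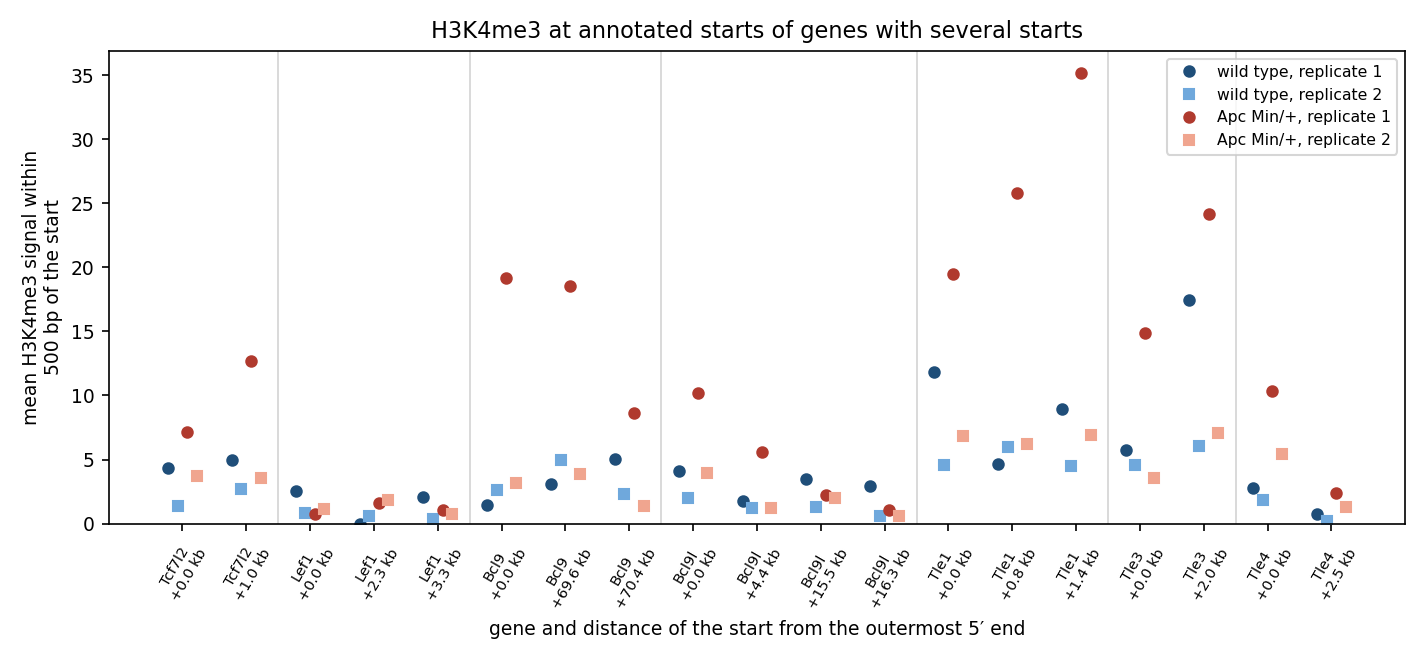
Mean H3K4me3 signal within 500 bp of each named start of 7 of the 8 members with several starts (Tcf7l1 is not drawn), ordered by distance from the outermost 5′ end (kb), with 1 point per library. At Bcl9 the outermost start and the start 69.6 kb inside reach 19.1 and 18.5 in Apc Min/+ replicate 1, and all starts of Lef1 lie under 3.

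Other genes of the nuclear end of the pathway were read from a list of 26. Of these 20 were tested and 0 passed the threshold, and all 20 were higher in Apc Min/+ mice, with a median difference of 0.75 (log2). In 5 of the 20 both Apc Min/+ values exceeded both wild-type values, beside 38.5% of all promoters tested, and after centring this held in 0 while in 4 both were below. Of the 5, Ctbp1 and Ruvbl1, a subunit of chromatin remodelling complexes, had wild-type means of 1.68 and 1.77 and reached the filter only through the Apc Min/+ libraries, so their place in this count follows from the filter. The differences were largest at Ctbp1 (1.48 ± 0.79, SE), which encodes a corepressor, and Tnik (1.19 ± 1.26), a kinase that acts on TCF proteins. They were smallest at Tbl1xr1 (0.12 ± 0.84), which encodes a part of corepressor complexes, and Ldb1 (0.20 ± 0.74), an adaptor. The signal at Ctbp1 was 1.05 and 2.31 in wild-type mice and 12.4 and 2.92 in Apc Min/+ mice, with the first value from wild-type replicate 1, the shallowest library. Among the genes that did not reach the filter were the homologues Pygo1 (0.698 and 0.418 in wild-type mice, 0.270 and 0.548 in Apc Min/+ mice), Tle2 (1.05 and 0.314, then 0.431 and 0.642) and Tle6 (2.09 and 0.836, then 1.01 and 1.55), named after their values were seen. Pygo2 thus had more signal than Pygo1 in each library, and Tle1, Tle3 and Tle4 had more than Tle2 and Tle6. This does not hold for all relatives of the TLE genes on the list. Aes, a shorter member of that family, reached the filter, with 10.5 and 2.48 in wild-type mice and 22.7 and 3.60 in Apc Min/+ mice. Ctnnb1, which encodes β-catenin itself and was also singled out after its values were seen, had 0 and 0.209 in wild-type mice and 0 and 0.183 in Apc Min/+ mice at its outermost annotated end. At the start 4184 bp from that end, read over 1000 bp on each side, it had 1.92 and 2.14 in wild-type mice and 3.44 and 1.59 in Apc Min/+ mice.

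Of 15 genes that TCF/LEF proteins are known to drive, 10 were tested and 0 passed the threshold. All 10 were higher in Apc Min/+ mice, with a median difference of 0.91 (log2) beside 0.85 over all promoters tested, and 5 had groups that did not overlap, beside 38.5% of all promoters tested. Of these 5, Ccnd1, Ephb2 and Cd44 had wild-type means of 0.772, 1.95 and 1.15 and reached the filter only through the Apc Min/+ libraries, so the count and the median are a description of the genes that passed. The largest differences were 1.90 ± 1.00 (SE) at Myc, with 1.51 and 3.09 in wild-type mice and 19.96 and 5.79 in Apc Min/+ mice, and 1.53 ± 0.60 at Ccnd1, which encodes cyclin D1, with 0.349 and 1.20 against 5.72 and 2.67. The smallest were 0.35 ± 0.79 at Sp5 and 0.43 ± 0.91 at Znrf3. By limma the adjusted p of Myc and Ccnd1 was 0.683. After centring, the median of the list was 0.05, with 6 of 10 higher. Among 8 crypt markers, 3 were tested: Smoc2 and the proliferation genes Mki67 and Top2a. Lgr5, Olfm4, Ascl2, Lyz1 and Defa24 did not reach the filter. At all 3 tested the groups did not overlap and the Apc Min/+ values were higher, which was so for 38.5% of all promoters tested. After centring it held at 1 of the 3, and Smoc2, with a wild-type mean of 1.73, reached the filter only through the Apc Min/+ libraries. The summed signal of the 8 genes was 14.7 and 11.8 in wild-type mice and 47.5 and 20.4 in Apc Min/+ mice. Most of it lay at Mki67 and Top2a. Mki67 had 4.88 and 4.23 in wild-type mice and 16.4 and 6.96 in Apc Min/+ mice. Top2a had 5.56 and 4.19, then 22.6 and 6.42. The sum of the 16 enterocyte markers, 87.6 and 54.6 against 263 and 69.4, was also highest in Apc Min/+ replicate 1. In a bulk sample, more cells of a type and more of the mark per cell cannot be told apart.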

How the data were processed

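The analysis used 4 H3K4me3 CUT&RUN libraries of villus cells, 2 from wild-type and 2 from Apc Min/+ mice. The other samples of the series were not analysed here. Per the study's methods and the labels, the authors trimmed reads, aligned them to mm10 with Bowtie2, removed duplicates with Picard and reads of low mapping quality, kept fragments of nucleosome size and made coverage with HOMER. The deposited signal is this coverage scaled to 10000000 tags per library; tags at a window were recovered by dividing its summed signal by the signal of 1 tag. The mean signal within 1000 bp of the 5′ end of 21938 genes was tested with limma 3.58.1 (trend) in R 4.3.3 on log2(signal + 1), for a mean of at least 2, with Benjamini-Hochberg adjustment over all promoters, and single values with a two-sided exact permutation test. Since the values are not counts, no count model was used. On simulated data the fit recovered known changes when the libraries had equal levels but, without centring, not when their levels were as unequal as here. The noise between simulated replicates was set in advance and not taken from these libraries, so the simulation does not measure power here. All 10 members were named; starts were named from 10% of the start signal of their gene. From the lists of other nuclear Wnt genes and of target genes the 2 highest and 2 lowest differences were named. The members and lists were chosen with earlier results of these data known. Alternatives changed scaling, pseudocount, filter, window, start and the libraries used.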

Additional observations from a re-analysis of the deposited data

How the results depend on the processing

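The number of promoters past the threshold was 0 in the analysis reported and under both other pseudocounts, both other filters, both other windows, scaling to background and the start with the highest signal. It was 12 after centring, 2 after quantile normalization and 1 with the replicate number as a replicate block. Leaving out 1 library gave 0 to 6477, the latter without Apc Min/+ replicate 2. The replicate numbers are not said to mark shared mice or batches, and deviations of same-numbered libraries correlated with r = 0.196 over 9931 promoters. The members higher in Apc Min/+ mice were 3 of 7 after centring and 3 of 7 after quantile normalization in place of 7. Their median difference (log2) turned to -0.0779 after centring and -0.0757 after quantile normalization, and lay between 0.0423 and 1.51 with 1 library left out. The members whose groups do not overlap numbered 2 to 7 with 1 library left out, while over all promoters tested the Apc Min/+ values were the higher ones without overlap in 87.5% without wild-type replicate 1 and in 98.9% without Apc Min/+ replicate 2. After centring, Pygo2 turned to -0.3146, Tcf7l2 to -0.1904, Tle3 to -0.1837 and Tle1 to -0.0779. After quantile normalization they were at -0.248, -0.1014, -0.2038 and -0.0757. With 1 library left out, Pygo2 ranged from -0.0485 to 1.13 and Tle1 from -0.0814 to 1.63. The cause was not tested. Among the members, Tcf7, Tcf7l1 and Lef1 had the fewest tags, at 5 to 23 per library.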
